A study of Mus musculus with 6 samples.

Results

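The 8 genes described here encode provisional matrix and matricellular proteins: fibronectin (Fn1), periostin (Postn), tenascin C (Tnc), SPARC (Sparc), thrombospondins 1, 2 and 3 (Thbs1, Thbs2, Thbs3) and versican (Vcan). They were chosen by gene symbol, and all 8 were found among the 31815 mouse gene rows of the table. The 6 RNA libraries were made from sorted cells of injured mouse kidneys (cortex with outer medulla). The 3 tdT+GFP+ libraries hold Acta2-GFP cells that were also tdTomato-positive, and the 3 tdT-GFP+ libraries hold Acta2-GFP cells without tdTomato. By the labels, kidneys 1, 2 and 3 each gave 1 library of both kinds, a pairing that rests on their numbers alone.

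Every library came from male mice of genotype Axin2CreERT2/+:R26RtdT/+:Acta2-GFP, aged 9 to 12 weeks and weighing 25 to 30 g. Both kidneys underwent ischemia reperfusion injury, in which the blood supply is stopped and then restored. Tamoxifen was given on days 2 and 4 and cells were sorted on day 6 after injury, so both groups share the injury, the alleles and the drug. Red fluorescence marks cells in which the Axin2-driven Cre was active around the tamoxifen doses, Axin2 being a gene that canonical Wnt signalling switches on. In all cells 1 Axin2 allele carries the Cre. A cell that used Axin2 but escaped recombination would be counted as tdT-GFP+. Uninjured kidneys were not analysed here.

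Provisional matrix is the loose scaffold of fibronectin, hyaluronan and versican that fills a wound before fibrillar collagen matures. Matricellular proteins such as the tenascins, thrombospondins, periostin and SPARC are secreted into that scaffold and act mainly on cell adhesion, on growth factors and on collagen assembly rather than as structural fibres. In injured kidney, fibroblasts and myofibroblasts are known as their main producers, and macrophages and platelets are further sources of fibronectin and thrombospondin 1.

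Library totals ran from 25697348 to 33029933 counts, and a count of 3 corresponds to at most 0.117 CPM, the counts-per-million unit used throughout, on library sizes scaled by TMM (a factor that evens out library composition). The fibroblast collagen mRNA Col1a1 ran from 19097 to 21853 CPM across tdT+GFP+ and from 14933 to 21494 CPM across tdT-GFP+ libraries, and Acta2 from 1416 to 1747 CPM across tdT+GFP+ and from 943 to 1588 CPM across tdT-GFP+ libraries. Markers of other cell types were present in both groups. The summed level of 10 endothelial markers was 654 to 1202 CPM in tdT+GFP+ libraries and 1322 to 2861 CPM in tdT-GFP+ libraries. All 10 had negative log2 fold changes (median -1.30); edgeR called 0, with 9 lower at an unadjusted p under 0.05, DESeq2 called 8 lower and DESeq2 with the kidney as a block 7. Of 10 pericyte and smooth muscle markers 9 had negative values (median -0.50); edgeR called 0, with 5 lower at an unadjusted p under 0.05, DESeq2 called 2 lower and, with the block, 1 (Rgs5). Of all genes, 6.97% were lower at that p in edgeR. DESeq2 called 1.6% of all genes lower, and 1.59% with the block. The part of these cells in the results was not tested. Axin2 mRNA overlapped between the groups, with 29.7 to 64.2 CPM in the tdT+GFP+ and 27.3 to 64.2 CPM in the tdT-GFP+ libraries. Counts came from bulk RNA, so fewer cells of a type and less RNA per cell cannot be told apart.

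All 8 mRNAs were detected in every library, and together they took 2.02%, 2.10% and 2.00% of counts in tdT+GFP+ libraries 1, 2 and 3. In tdT-GFP+ libraries 1, 2 and 3 the shares were 2.28%, 1.59% and 1.68%. Fn1 was the 6th most abundant mRNA of the table by mean CPM, Sparc the 10th, Tnc the 19th and Thbs1 the 31st. To set levels of different genes side by side, CPM were divided by the length of the gene's merged exons in kilobases (kb). Over the 6 libraries Sparc was highest at 1424 CPM per kb, followed by Fn1 at 616, Tnc at 436 and Thbs1 at 412. Postn at 38.5, Thbs2 at 36.2, Vcan at 28.8 and Thbs3 at 8.80 CPM per kb formed the lower end. The ranges over libraries of Fn1, Tnc and Thbs1 touched their neighbours in that order, as did those of Postn, Thbs2 and Vcan. Sparc, whose lowest library had 1159 CPM per kb, lay above all libraries of Fn1, whose highest had 806. With the median length of annotated coding transcripts in place of merged exons, Vcan came to 181 CPM per kb and above Postn, so the place of Vcan depends on the length used.

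No member passed the test between the sorted populations, and Thbs1 had the widest difference, a 1.61-fold higher fitted level in tdT+GFP+ cells. In edgeR's quasi-likelihood test over 15462 genes, 0 of 8 members had an adjusted p under 0.05, against 0% of all genes. At an unadjusted p under 0.05, 1 of 8 members was higher in tdT+GFP+ cells (Thbs1), against 3.71% of all genes, and 0 were lower, against 6.97%. DESeq2 with the same model also called 0 of 8, against 0.097% of all genes higher and 1.6% lower. With libraries scaled on collagen counts edgeR called 0 of 8, against 0.0388% of all genes lower, and 3 of 8 values (Thbs1, Tnc and Vcan) were positive; that scaling moved the median of all genes to -0.179, and 7 of 8 members lay above it. The values of all 8 members overlapped between the groups, where 15.8% of all genes did not overlap (7.23% higher and 8.6% lower in tdT+GFP+ cells). Of the 8 log2 fold changes, tdT+GFP+ over tdT-GFP+, 6 were positive with a median of 0.12, against 49.9% positive and a median of -0.0004 over all genes tested.

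**Figure D1:**
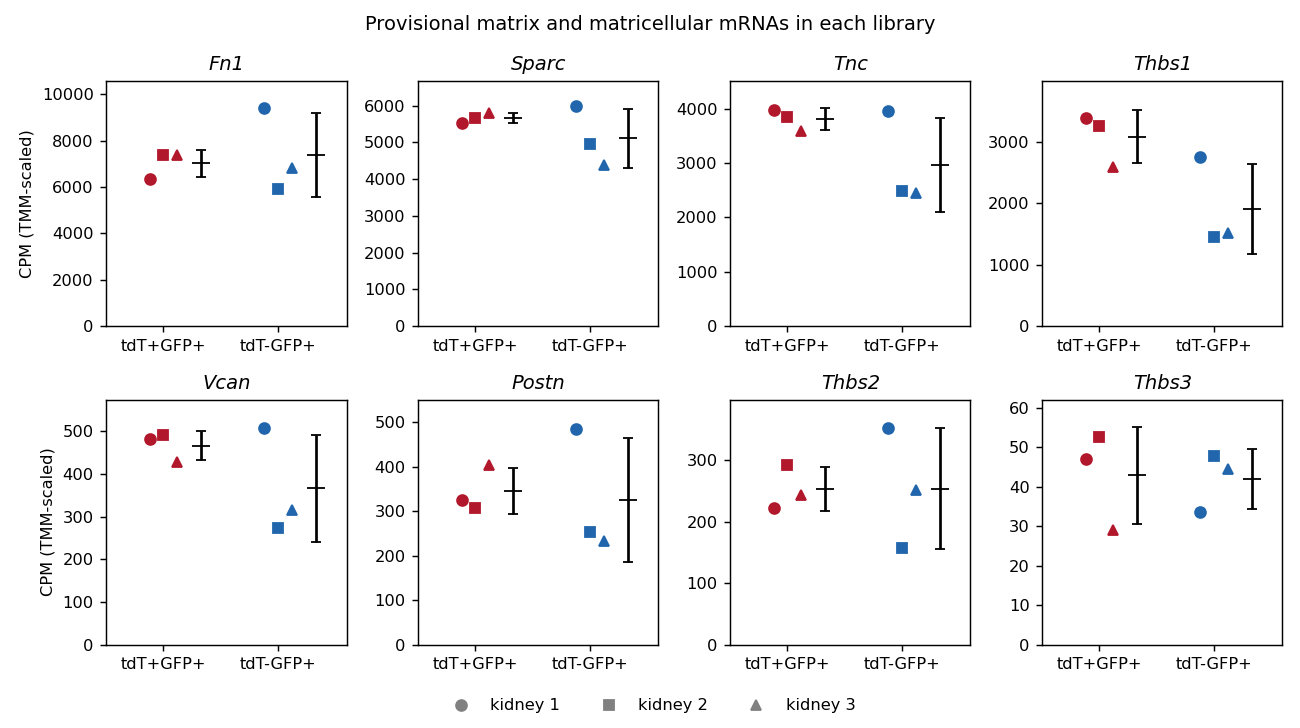
Level of each mRNA (CPM on TMM-scaled library sizes, linear axis from 0) in the 3 tdT+GFP+ libraries (red, left) and the 3 tdT-GFP+ libraries (blue, right); marker shape gives the kidney, and the black bar the mean and SD of the group. The tdT-GFP+ library of kidney 1 stands apart from the other 2 of its group for Fn1, Tnc, Thbs1, Vcan and Postn.

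Fibronectin is the adhesive glycoprotein that cells pull into fibrils as the first scaffold of a wound, and its mRNA level did not separate the populations. Fn1 (ENSMUSG00000026193.15, GRCm38 chromosome 1, 71585520 to 71653200, minus strand) had 6336, 7362 and 7358 CPM in tdT+GFP+ libraries 1, 2 and 3, against 9412, 5901 and 6816 CPM in tdT-GFP+ libraries 1, 2 and 3. The highest and the lowest value both belonged to tdT-GFP+ cells, so the groups overlapped throughout. Averaged over 3 libraries each, tdT+GFP+ cells had 7019 ± 591 CPM and tdT-GFP+ cells 7376 ± 1822 CPM (mean ± SD). The fitted log2 fold change of Fn1 was -0.07 (SE 0.20, 95% interval -0.55 to 0.41, edgeR adjusted p = 0.896), which became 0.16 when tdT-GFP+ library 1 was left out. The table counts genes, so the splice forms of Fn1 that include or skip the extra domains cannot be told apart.

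Periostin binds collagen and integrins and is widely used as a marker of activated fibroblasts. Postn (ENSMUSG00000027750.16, chromosome 3, 54361109 to 54391037, plus strand) had 325, 308 and 404 CPM in tdT+GFP+ libraries, against 486, 254 and 234 CPM in tdT-GFP+ libraries 1, 2 and 3. As for Fn1, tdT-GFP+ library 1 was the highest of all, while the other 2 of its group were the lowest. Its log2 fold change was 0.09 (SE 0.29, 95% interval -0.62 to 0.80, edgeR adjusted p = 0.913). Per kidney the log2 ratio of tdT+GFP+ to tdT-GFP+ cells was -0.58, 0.28 and 0.79 in kidneys 1, 2 and 3, and leaving out tdT-GFP+ library 1 gave a fitted value of 0.52.

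Tenascin C is an anti-adhesive glycoprotein induced in wounds and mechanically loaded tissue. Tnc (ENSMUSG00000028364.15, chromosome 4, 63959785 to 64047015, minus strand) had 3979, 3861 and 3592 CPM in tdT+GFP+ libraries, against 3966, 2486 and 2452 CPM in tdT-GFP+ libraries 1, 2 and 3. The tdT+GFP+ libraries lay close together, and tdT-GFP+ library 1 fell among them while libraries 2 and 3 lay below. Averaged over 3 libraries each, tdT+GFP+ cells had 3811 ± 198 CPM and tdT-GFP+ cells 2968 ± 864 CPM (mean ± SD), which the fit put at a log2 difference of 0.36 (SE 0.21, 95% interval -0.14 to 0.86, edgeR adjusted p = 0.530). Leaving out tdT-GFP+ library 1 gave 0.64 (adjusted p = 0.138).

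Versican is the large proteoglycan that binds hyaluronan in provisional matrix. Vcan (ENSMUSG00000021614.16, chromosome 13, 89655312 to 89742509, minus strand) had 481, 491 and 427 CPM in tdT+GFP+ libraries, against 509, 274 and 316 CPM in tdT-GFP+ libraries 1, 2 and 3. The order of libraries was close to that of Tnc, with tdT-GFP+ libraries 2 and 3 again below the other 4. Its log2 fold change was 0.35 (SE 0.23, 95% interval -0.21 to 0.91, edgeR adjusted p = 0.566), and leaving out tdT-GFP+ library 1 gave 0.67 (adjusted p = 0.133). Tnc and Vcan kept a nearly fixed proportion: the ratio of their counts was 8.28, 7.86 and 8.42 in tdT+GFP+ libraries and 7.80, 9.06 and 7.76 in tdT-GFP+ libraries.

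Because Tnc and Vcan varied together, and because Thbs3 ran differently, the 250 bases before the RefSeq start of these 3 genes are shown, with Postn for its match close to the start, 5′ to 3′ on the gene's strand (RefSeq, GRCm38.p6). Capitals mark matches to the motifs searched. The windows are chr4:64047016-64047265 (minus strand), chr13:89742513-89742762 (minus), chr3:54360857-54361106 (plus) and chr3:89214930-89215179 (plus).
Tnc: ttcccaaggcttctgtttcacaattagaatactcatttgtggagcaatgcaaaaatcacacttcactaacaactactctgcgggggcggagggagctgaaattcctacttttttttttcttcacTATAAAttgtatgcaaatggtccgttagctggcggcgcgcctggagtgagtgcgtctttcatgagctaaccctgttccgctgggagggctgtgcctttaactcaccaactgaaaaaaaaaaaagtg
Vcan: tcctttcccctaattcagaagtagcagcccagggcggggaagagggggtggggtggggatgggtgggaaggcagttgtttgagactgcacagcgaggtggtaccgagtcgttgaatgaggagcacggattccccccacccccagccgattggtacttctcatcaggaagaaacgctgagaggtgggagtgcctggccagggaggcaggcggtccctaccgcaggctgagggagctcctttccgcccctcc
Postn: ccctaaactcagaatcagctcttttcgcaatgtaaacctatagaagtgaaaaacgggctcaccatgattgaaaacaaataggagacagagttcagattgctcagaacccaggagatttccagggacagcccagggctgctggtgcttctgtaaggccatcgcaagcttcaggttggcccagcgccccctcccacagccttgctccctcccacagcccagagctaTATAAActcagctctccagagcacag
Thbs3: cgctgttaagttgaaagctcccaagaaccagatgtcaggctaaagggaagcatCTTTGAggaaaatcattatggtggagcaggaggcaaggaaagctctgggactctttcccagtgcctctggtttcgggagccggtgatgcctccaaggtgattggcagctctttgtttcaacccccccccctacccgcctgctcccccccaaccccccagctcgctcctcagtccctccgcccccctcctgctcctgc

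Promoter entries were found for 6 of the 8 members, those other than Fn1 and Thbs1. The RefSeq start of Sparc lies 3103 bases from the GENCODE start of the gene, so that window is not at the outermost annotated start. Each window was searched on both strands for 4 motifs. These were the TATA box (letters TATAAA), the AP-1 motif (letters TGANTCA), the TEAD motif (letters GGAATG) and the core of the motif of TCF/LEF, the factors of canonical Wnt signalling (letters CTTTGA). The TATA box letters began 26 bases before the start of Postn and 126 bases before that of Tnc, and it lay on the opposite strand of the Thbs2 window. The TCF/LEF letters were found in the Thbs3 window alone, 197 bases before the start. The other 2 motifs had no match in the 6 windows, and none of the matches overlapped another motif. Among 32851 RefSeq promoter windows of the same length, the TATA box letters were found in 12.4%, the AP-1 letters in 6.75%, the TEAD letters in 12.6% and the TCF/LEF letters in 13.8%. These are matches of letters, not sites, and no link between them and the mRNA levels was tested.

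SPARC is a collagen-binding chaperone of matrix assembly and was the steadiest of the 8 mRNAs. Sparc (ENSMUSG00000018593.13, chromosome 11, 55394500 to 55423183, minus strand) had 5538, 5672 and 5803 CPM in tdT+GFP+ libraries, against 5983, 4971 and 4392 CPM in tdT-GFP+ libraries 1, 2 and 3. The highest library was only 1.36 times the lowest, and the tdT+GFP+ libraries fell inside the range of the tdT-GFP+ libraries. Its log2 fold change was 0.15 (SE 0.15, 95% interval -0.21 to 0.50, edgeR adjusted p = 0.686), and leaving out tdT-GFP+ library 1 gave 0.29.

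Among the 3 thrombospondins the fitted log2 fold change was 0.69 for Thbs1, -0.0044 for Thbs2 and 0.03 for Thbs3, and none passed in edgeR. Thbs1 encodes a trimeric protein known to activate latent TGF-beta and to inhibit angiogenesis through CD36 and CD47. Thbs1 (ENSMUSG00000040152.8, chromosome 2, 118111876 to 118127133, plus strand) had 3400, 3266 and 2594 CPM in tdT+GFP+ libraries, against 2765, 1456 and 1520 CPM in tdT-GFP+ libraries 1, 2 and 3. In 8 of 9 pairings of a tdT+GFP+ with a tdT-GFP+ library the tdT+GFP+ value was higher, and the exception set tdT+GFP+ library 3 against tdT-GFP+ library 1. Averaged over 3 libraries each, tdT+GFP+ cells had 3087 ± 432 CPM and tdT-GFP+ cells 1914 ± 738 CPM (mean ± SD). On the log2 scale the fitted difference was 0.69 (SE 0.28, 95% interval 0.03 to 1.35, unadjusted p = 0.0430, adjusted p = 0.456, edgeR quasi-likelihood test).

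Within kidneys 1, 2 and 3 the Thbs1 log2 ratio of tdT+GFP+ to tdT-GFP+ cells was 0.30, 1.17 and 0.77, so it was higher in 3 of 3, as were 15.4% of all genes. All values per kidney rest on the labels' numbers: tdT+GFP+ library 2 deviated from its group mean together with tdT-GFP+ library 3 (correlation across genes 0.448), and against tdT-GFP+ library 2 (-0.578). With the kidney as a block, DESeq2 called Thbs1 higher (0.74, adjusted p = 0.0218), 1 of 8 members against 0.269% of all genes called higher, while edgeR with the block did not (0.75, adjusted p = 0.522). Leaving out tdT-GFP+ library 1 gave 1.07 (edgeR adjusted p = 0.133). The adjusted p ran from 0.133 to 0.915 over leaving out libraries or kidneys and from 0.0218 to 0.551 over the other alternatives.

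Thbs2, the close paralogue of Thbs1 that lacks the TGF-beta-activating sequence, had nearly equal group means, 253 ± 36.3 CPM in tdT+GFP+ and 254 ± 98.3 CPM in tdT-GFP+ libraries (mean ± SD of 3 each). Thbs2 (ENSMUSG00000023885.9, chromosome 17, 14665500 to 14694235, minus strand) had 223, 293 and 243 CPM in tdT+GFP+ libraries, against 353, 157 and 252 CPM in tdT-GFP+ libraries 1, 2 and 3. The tdT-GFP+ libraries held both extremes. Its log2 fold change was -0.0044 (SE 0.29, 95% interval -0.69 to 0.68, edgeR adjusted p = 0.996), and leaving out tdT-GFP+ library 1 gave 0.33.

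Thbs3 belongs to the pentameric thrombospondins and was the rarest member. Thbs3 (ENSMUSG00000028047.11, chromosome 3, 89215180 to 89226837, plus strand) had 47.0, 52.6 and 29.1 CPM in tdT+GFP+ libraries, against 33.5, 47.9 and 44.6 CPM in tdT-GFP+ libraries 1, 2 and 3. It was low in tdT+GFP+ library 3 and tdT-GFP+ library 1, and in that tdT-GFP+ library 5 other members peaked. Its log2 fold change was 0.03 (SE 0.24, 95% interval -0.54 to 0.61, edgeR adjusted p = 0.965). Its exons share 318 bases with Mtx1 on the opposite strand, which had 610 to 904 counts, against 766 to 1631 for Thbs3, and the strand setting of the counting is not stated in the sources used here.

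**Figure D2:**
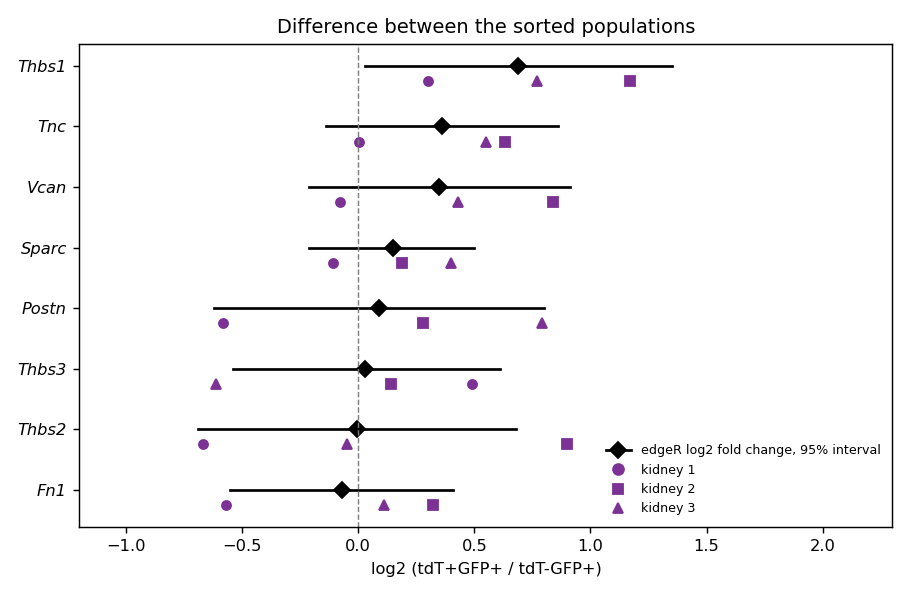
Log2 fold change of each mRNA, tdT+GFP+ over tdT-GFP+ (black diamond, edgeR fit, with its 95% interval), and the log2 ratio within each kidney below it (purple; circle, square and triangle for kidneys 1, 2 and 3). Only the Thbs1 interval, 0.03 to 1.35 before adjustment, lies above 0, and kidney 1 gives the lowest ratio for every gene but Thbs3.

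The spread of these genes lay mostly within the tdT-GFP+ group. The coefficient of variation was lower in tdT+GFP+ than in tdT-GFP+ cells for 7 of 8 members, and Thbs3 was the exception. It was 5.21% in tdT+GFP+ and 29.1% in tdT-GFP+ cells for Tnc, and 2.34% in tdT+GFP+ and 15.7% in tdT-GFP+ cells for Sparc. No share over all genes was counted for this spread, so it cannot be called particular to these genes. Other genes went both ways: the SD was 1390 CPM in tdT+GFP+ and 3302 CPM in tdT-GFP+ libraries for Col1a1. For Tgfbi it was 38.3 CPM in tdT+GFP+ and 5.65 CPM in tdT-GFP+ libraries. For 5 of 8 members, Thbs1, Tnc, Vcan, Postn and Sparc, tdT-GFP+ libraries 2 and 3 were both below the other 4 libraries. The same arrangement was found in 16.8% of all genes tested. It was looked for after the values were seen, so no test is attached to it. Of 8 members, 5 were highest in tdT-GFP+ library 1 and 0 were lowest there, for which no share over all genes was counted.

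When tdT-GFP+ library 1 was left out, 4 of 8 members (Thbs1, Vcan, Tnc and Postn) had an unadjusted p under 0.05 in edgeR and were higher in tdT+GFP+ cells, against 10.6% of all genes. Their unadjusted p-values were 0.00071, 0.00121, 0.00174 and 0.0143, and their adjusted p-values 0.133, 0.133, 0.138 and 0.169. None passed the threshold. Without both libraries of kidney 1 the same 4 genes were past it before adjustment, against 5.07% of all genes, with an adjusted p of 0.519 each. In its group, tdT-GFP+ library 1 was highest for all 4 genes, so leaving it out raises their differences. Leaving out tdT-GFP+ library 2 or 3, or tdT+GFP+ library 1 or 2, gave 0 of 8 members at an unadjusted p under 0.05. Leaving out kidney 2 or 3 also gave 0 of 8, and leaving out tdT+GFP+ library 3 gave 1.

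**Figure D3:**
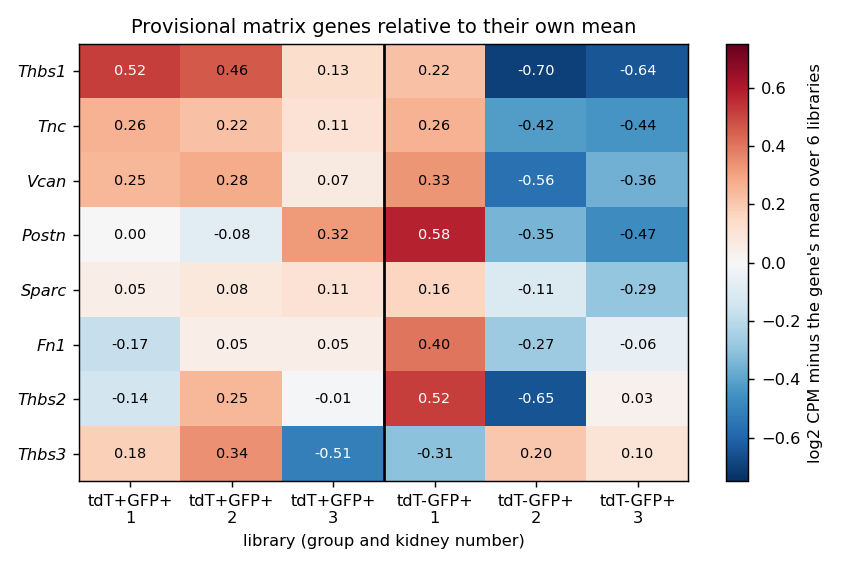
Log2 CPM of each mRNA in each library minus that gene's mean over the 6 libraries (colour and printed value; tdT+GFP+ libraries left of the line, tdT-GFP+ libraries right). Thbs1 runs from 0.52 in tdT+GFP+ library 1 to -0.70 in tdT-GFP+ library 2, Tnc and Vcan are likewise lowest in tdT-GFP+ libraries 2 and 3, and Thbs3 is low in tdT-GFP+ library 1, at -0.31.

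Levels of other cell types also differed between the libraries. The summed level of 10 proximal tubule markers was 522, 604 and 609 CPM in tdT+GFP+ libraries and 354, 1322 and 903 CPM in tdT-GFP+ libraries 1, 2 and 3. For 8 markers of the loop of Henle, distal tubule and collecting duct it was 251, 221 and 673 CPM in tdT+GFP+ and 552, 923 and 1235 CPM in tdT-GFP+ libraries. All 8 had negative log2 fold changes (median -1.02), as did 6 without kidney 2. In edgeR 0 were called and 3 were lower at an unadjusted p under 0.05, against 6.97% of all genes. DESeq2 called 1 lower (Slc12a3), against 1.6% of all genes, and 4 with the kidney as a block, against 1.59%. The second sum was highest in tdT-GFP+ libraries 2 and 3, in which Thbs1, Tnc, Vcan, Postn and Sparc were lowest. In tdT-GFP+ libraries it was mostly Umod, with 353, 621 and 754 CPM, against 121, 82.5 and 451 CPM in tdT+GFP+ libraries. Not all 8 markers shared its order. Aqp2, for example, had 8.02, 6.41 and 24.2 CPM in tdT+GFP+ and 10.9, 22.8 and 13.3 CPM in tdT-GFP+ libraries. The proximal tubule sum turned on Aqp1, a water channel, with 216, 56.7 and 443 CPM in tdT+GFP+ and 92.8, 1070 and 174 CPM in tdT-GFP+ libraries. The endocytic receptor gene Lrp2 had another order, with 86.9, 140 and 34.4 CPM in tdT+GFP+ and 61.9, 42.9 and 161 CPM in tdT-GFP+ libraries, so the proximal tubule markers did not share 1 pattern. The 10 fibroblast and myofibroblast markers summed to 59209, 56920 and 64274 CPM in tdT+GFP+ libraries, against 65422, 52636 and 43829 CPM in tdT-GFP+ libraries, lowest again in libraries 2 and 3. That sum was mostly the collagens Col1a1, Col1a2 and Col3a1, and not all 10 markers shared its order. Pdgfra, for example, had 1153, 1073 and 1278 CPM in tdT+GFP+ and 1099, 1238 and 855 CPM in tdT-GFP+ libraries.

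Macrophage markers, 10 genes, summed to 1040, 1535 and 426 CPM in tdT+GFP+ libraries and 550, 309 and 935 CPM in tdT-GFP+ libraries. Of the 10, 9 had positive log2 fold changes (median 0.62), and edgeR and DESeq2 called 0. Without kidney 2 only 4 were positive (median -0.02). None of the proximal tubule or macrophage markers was at 0 in all libraries. The 7 platelet and megakaryocyte markers summed to 6.62 to 11.5 CPM in tdT+GFP+ libraries and 4.56 to 9.38 CPM in tdT-GFP+ libraries. The platelet factor gene Pf4 had 8.18, 9.28 and 3.54 CPM in tdT+GFP+ and 3.69, 1.83 and 5.12 CPM in tdT-GFP+ libraries. The part of these cell types in the differences was not tested.

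Although the levels of all 8 mRNAs overlapped, some of their proportions did not. A ratio of counts of a pair of genes within a library does not depend on how libraries are scaled. Ratios were examined after the levels had been seen, for all 28 pairs of members. Of these, 6 did not overlap between the groups, and 4 of the 6 contained Thbs1. Pairs share members, so the 28 are not independent, and the shares over all genes are given below for each reference gene.

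Thbs1 counts were 0.537, 0.444 and 0.353 of Fn1 counts in tdT+GFP+ libraries, against 0.294, 0.247 and 0.223 in tdT-GFP+ libraries. The lowest tdT+GFP+ value thus lay above the highest tdT-GFP+ value, and tdT-GFP+ library 1 fell in with its own group. On the log2 scale the ratio differed by 0.87, 0.85 and 0.66 in kidneys 1, 2 and 3, and by 0.79 between the group means (-1.19 ± 0.30 for tdT+GFP+, -1.98 ± 0.20 for tdT-GFP+; mean ± SD of 3 each). The exact two-sided permutation p was 0.1, the smallest that 3 against 3 allows, and 0.467 when adjusted over the 28 pairs, so no pair could pass. Tnc and Vcan also had higher ratios to Fn1 in every tdT+GFP+ library: for Tnc they were 0.628, 0.524 and 0.488, against 0.421, 0.421 and 0.360 in tdT-GFP+ libraries. For Vcan they were 0.0759, 0.0667 and 0.0580 in tdT+GFP+ and 0.0540, 0.0465 and 0.0464 in tdT-GFP+ libraries. Of the 7 other members, these 3 had ratios to Fn1 that were higher in every tdT+GFP+ library, as did 3.95% of all genes tested, and 0 of 7 were lower in every one, against 2.69%.

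Thbs1 was also higher relative to Tnc, Vcan and Thbs2 in every tdT+GFP+ library. Its ratio to Vcan was 7.07, 6.65 and 6.08 in tdT+GFP+ libraries, against 5.44, 5.31 and 4.81 in tdT-GFP+ libraries. The log2 difference within kidneys 1, 2 and 3 was 0.38, 0.33 and 0.34, the narrowest spread of these pairs. The ratio to its paralogue Thbs2 was 15.3, 11.1 and 10.7 in tdT+GFP+ libraries, against 7.83, 9.30 and 6.04 in tdT-GFP+ libraries. Relative to Tnc it was 0.854, 0.846 and 0.722 in tdT+GFP+ and 0.697, 0.586 and 0.620 in tdT-GFP+ libraries. Thbs1 stood in this relation to 4 of the 7 other members and to 23.8% of all other genes tested, and in the opposite relation to 0 of 7 and to 0.0711%. Seen from its partners, Thbs1 was the only member (1 of 7) with a higher ratio to Thbs2, Tnc or Vcan in every tdT+GFP+ library, against 0.699%, 0.388% and 0.343% of all genes tested. The ratio to Tnc and that to Vcan were lower for 1 of 7 members, Fn1, against 10.9% and 7.32%, and the ratio to Thbs2 was lower for 0 of 7, against 2.71%. The ratios of Thbs1 to Sparc, Postn and Thbs3 overlapped between the groups.

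**Figure D4:**
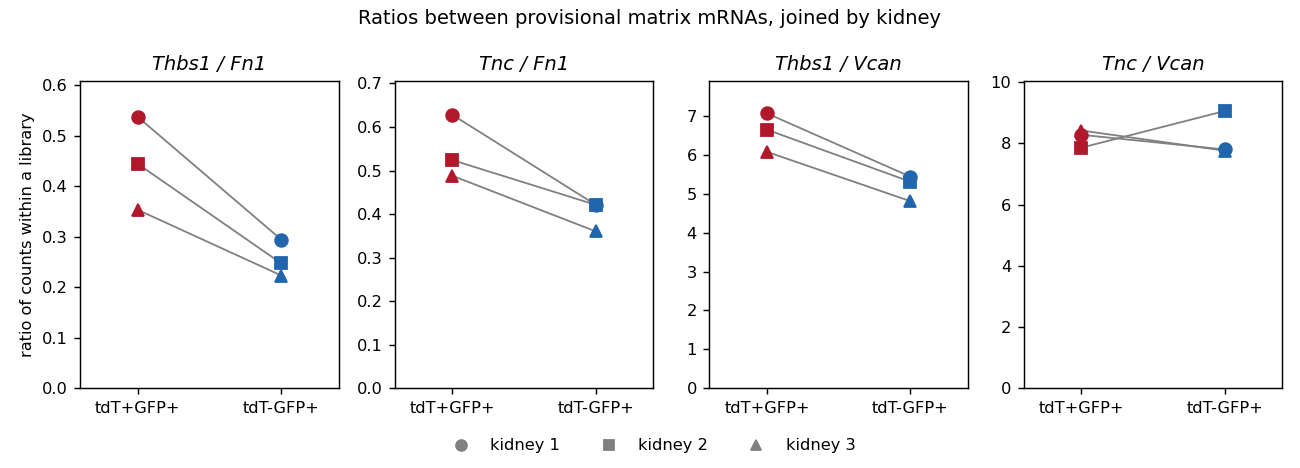
Ratio of counts within a library (linear axis from 0) for 4 pairs of mRNAs in tdT+GFP+ (red, left) and tdT-GFP+ (blue, right) libraries, joined by kidney. The ratios of Thbs1 and Tnc to Fn1 and of Thbs1 to Vcan are higher in tdT+GFP+ cells in all 3 kidneys without overlap, and that of Tnc to Vcan overlaps.

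Genes whose levels ran most like each member were found by the root mean square difference of log2 CPM, each gene centred on its own mean, over the 6 libraries and among 9564 other genes with a mean of at least 10 CPM. Predicted gene models (Gm and Rik names) were left out of these 9564 genes. Nearest to Thbs1 were Vgll3 (0.055), Fam126a (0.083) and Lif (0.087). Nearest to Vcan were Runx1 (0.035), Esyt2 (0.057) and Idi1 (0.058), and nearest to Tnc were Fdps (0.042), Gda (0.042) and Serpinb6b (0.043). Tnc itself was the 10th nearest gene to Vcan, at 0.079, and Vcan the 25th nearest to Tnc. For the other members the closest member ranked lower: 47 for Thbs1, 63 for Thbs2, 105 for Postn, 966 for Fn1, 4382 for Sparc and 7435 for Thbs3. For Fn1 the 3 were Gpc1, Tgfb3 and Pxdn (0.057 to 0.073), and for Sparc they were Acvr1, Pros1 and Colec12 (0.017 to 0.025). For Postn they were Adamts12, Insig1 and Kif26b, for Thbs2 Enpp1, Map1b and Igfbp6, and for Thbs3 Ptger4, Pop4 and Camk1d, at 0.089 to 0.130. With 6 libraries such neighbours are a description of these samples.

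Receptors of these proteins mostly had small positive differences, none of which passed the edgeR test. Of 22 receptor genes tested, 0 were called in edgeR or in DESeq2, 1 was higher at an unadjusted p under 0.05 in edgeR, 19 had positive log2 fold changes and the median was 0.24. Of all genes, 3.71% were higher at that p and 49.9% had positive values. The number of positive values dropped to 11 when both libraries of kidney 2 were left out, and it was 13 with scaling on collagen counts, where 18 lay above the median of all genes. Itga9, the integrin chain that binds tenascin C, had 640, 587 and 587 CPM in tdT+GFP+ libraries, against 525, 404 and 351 CPM in tdT-GFP+ libraries. Its groups did not overlap, and its log2 fold change was 0.50 (SE 0.16, unadjusted p = 0.0157, adjusted p = 0.424, edgeR), and DESeq2 with the kidney as a block called it higher (adjusted p = 0.0467). Of all genes, 7.23% were higher without overlap and 0.269% were called higher with the block. Itgav and Itgb1, chains of fibronectin and vitronectin receptors, had log2 fold changes of 0.36 and 0.19. Lrp1, an endocytic receptor of thrombospondins, was abundant, with 4636 ± 678 CPM in tdT+GFP+ against 3760 ± 790 CPM in tdT-GFP+ libraries (mean ± SD of 3 each), and its groups overlapped.

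Genes of matrix assembly and cleavage went both ways, 13 of 21 positive with a median of 0.12. In edgeR 0 were called, with 1 higher and 1 lower at an unadjusted p under 0.05, against 3.71% and 6.97% of all genes. DESeq2 called 0. With collagen scaling 9 of 21 were positive (median -0.04), as were 9 of 21 without kidney 3 (median -0.02). Adamts9, a protease that cleaves versican, had 173, 146 and 117 CPM in tdT+GFP+ libraries, against 112, 101 and 87.4 CPM in tdT-GFP+ libraries. Its groups did not overlap, as for 7.23% of all genes in that direction, and edgeR gave a log2 difference of 0.53 (SE 0.16, adjusted p = 0.418). DESeq2 with the kidney as a block called it higher (adjusted p = 0.00846), as it did 0.269% of all genes. Mmp9, a gelatinase, had 35.6, 43.8 and 57.0 CPM in tdT+GFP+ and 81.7, 53.3 and 68.6 CPM in tdT-GFP+ libraries (-0.58, adjusted p = 0.445). Tgm2, a transglutaminase that crosslinks fibronectin, came to -0.35 on the log2 scale (edgeR adjusted p = 0.468).

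Other matricellular genes were split in direction. Of 17 tested, 7 had positive and 10 negative log2 fold changes, with a median of -0.21. That direction was not stable: the median was 0.10 with 9 positive in DESeq2 with the kidney as a block, 0.19 when kidney 1 was left out and 0.17 when kidney 3 was. In edgeR 0 were called, with 2 higher and 0 lower at an unadjusted p under 0.05, against 3.71% and 6.97% of all genes. DESeq2 called 0. Ccn1, a matricellular integrin ligand, had 1804, 1389 and 1278 CPM in tdT+GFP+ libraries, against 997, 1198 and 749 CPM in tdT-GFP+ libraries. Tgfbi, a TGF-beta-induced relative of periostin, had 225, 253 and 177 CPM in tdT+GFP+ and 173, 163 and 172 CPM in tdT-GFP+ libraries. In both genes every tdT+GFP+ value lay above every tdT-GFP+ value, as in 7.23% of all genes. Their log2 fold changes were 0.60 (SE 0.21, adjusted p = 0.440) and 0.37 (SE 0.13, adjusted p = 0.444) in edgeR, and DESeq2 with the kidney as a block called Ccn1 higher (adjusted p = 0.0395). Ccn2 had the widest positive value, 0.86 (SE 0.38, adjusted p = 0.476), with 803 ± 295 CPM in tdT+GFP+ against 443 ± 187 CPM in tdT-GFP+ libraries (mean ± SD of 3 each). Without both libraries of replicate 2 it was 0.42. Osteopontin (Spp1) had 1977, 3157 and 2313 CPM in tdT+GFP+ and 2634, 2025 and 4795 CPM in tdT-GFP+ libraries, with a log2 fold change of -0.34, which was -0.80 without kidney 2 and 0.14 without kidney 3.

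Among the other provisional matrix and hyaluronan genes, 8 of 19 tested had positive values and the median was -0.19. It ran from -0.75 without tdT+GFP+ library 2 to 0.03, with 10 of 19 positive, without kidney 3, and was -0.47 in DESeq2 with the kidney as a block. In edgeR 0 were called, with 2 higher and 5 lower at an unadjusted p under 0.05, against 3.71% and 6.97% of all genes. DESeq2 called 1 lower, Fgb, against 1.6% of all genes. Fgb, a fibrinogen chain made mainly by liver, was at trace levels of 0.336, 0.935 and 0.381 CPM in tdT+GFP+ libraries, against 1.45, 1.87 and 6.53 CPM in tdT-GFP+ libraries. Its log2 fold change was -2.56 (SE 0.73, adjusted p = 0.414, edgeR), and leaving out kidney 3 gave -1.38. The DESeq2 call (adjusted p = 0.0307) was lost once kidney was a block in the fit (adjusted p = 0.0683). The library with the highest Fgb, tdT-GFP+ library 3, also had the highest summed level of 8 injured tubule markers, at 836 CPM. That sum was 354 and 395 CPM in tdT-GFP+ libraries 1 and 2 and 253 to 371 CPM in tdT+GFP+ libraries. All 8 of these markers had negative log2 fold changes (median -0.79), as did 6 without kidney 3, and edgeR called 0. A link between Fgb and these markers was not tested. Fbln1, a fibronectin-binding fibulin, had 181, 309 and 216 CPM in tdT+GFP+ and 319, 310 and 369 CPM in tdT-GFP+ libraries, without overlap (-0.50, adjusted p = 0.457). Of all genes, 8.6% were lower in tdT+GFP+ cells without overlap. Itih5, which encodes a hyaluronan-binding heavy chain, came to 0.76 on the log2 scale (SE 0.28, edgeR adjusted p = 0.446), and Fndc1 came to 0.55 (adjusted p = 0.532).

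**Figure D5:**
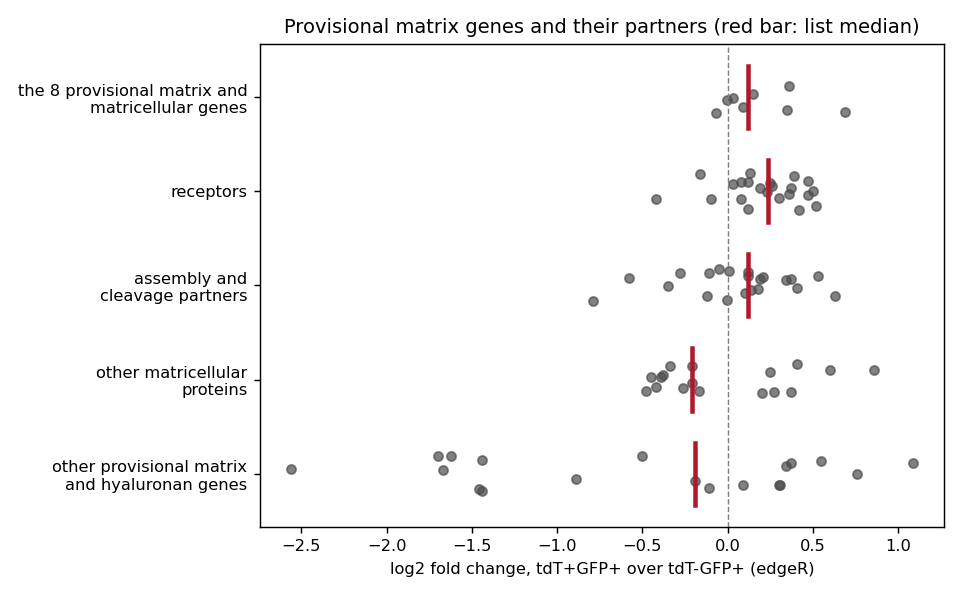
Log2 fold change, tdT+GFP+ over tdT-GFP+ (edgeR), of each tested gene in the 8 provisional matrix and matricellular genes and 4 surrounding lists (points; vertical position within a list is random), with the list median in red. Medians are 0.12, 0.24, 0.12, -0.21 and -0.19 from top to bottom, and none of the genes plotted passed the adjusted threshold in edgeR.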

How the data were processed

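Per the file headers, the authors deposited RSEM estimated counts per gene (expected counts), which were already whole numbers, and were used unrounded. Tools named by the submitters' processing notes are STAR 2.6.1 and bcl2fastq 2.20, then R 3.6.3, DESeq2 1.26.0 and RSEM 1.2.28; the builds mm10 and GRCh38 are named with no role. Per the labels' protocols, libraries were poly(A)-selected and strand-specific. The annotation release and strand setting of the counting are not given in the sources used here. All 92 ERCC rows were 0 and were left out. Coordinates and exon lengths are from GENCODE M21 (31748 rows matched).

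Genes were filtered with filterByExpr, given TMM library sizes, and compared by the quasi-likelihood test of edgeR 4.0.16 (robust, group alone) in R 4.3.3, with Benjamini-Hochberg adjustment over all 15462 genes and a threshold of 0.05. SE is the coefficient over the square root of F. DESeq2 1.42.0 and limma 3.58.1 were alternatives, with other scalings, filters, the kidney as a block, and libraries or kidneys left out. The procedure was tested on simulated data. The 8 members and all lists were chosen with earlier results of these data known. Named genes are the members, Axin2, Acta2 and, per list, up to 4 with the smallest unadjusted p and 3 with the highest CPM, of which the text gives part, plus the 3 nearest patterns per member. Mtx1 was named outside that rule, after its overlap with Thbs3 was seen, and Pdgfra to show a fibroblast marker with an order unlike the collagens. Aqp2 was likewise named outside it, to show a tubule marker with an order unlike Umod.

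The labels give each kidney 1 library of both groups, and the numbers were used as a pairing on that ground alone. Across genes, the deviations of paired libraries from their group's mean had correlations of 0.039, -0.578 and -0.304 in kidneys 1, 2 and 3. Between libraries of unlike number the correlations ran from -0.176 to 0.448. The highest were 0.448 for tdT+GFP+ 2 with tdT-GFP+ 3, and 0.444 for tdT+GFP+ 3 with tdT-GFP+ 2. Deviations were centred within each group of 3 libraries, so these correlations are not independent of each other. The data thus give no sign that kidneys 2 and 3 are numbered alike in both sorts, and the per-kidney ratios and blocked calls rest on the labels. No unused columns of sample values were present, and the labels name no batch. The interval of each fitted value is at the 95% level. Depth (25697348 to 33029933 counts per library) is not limiting for the members, so the spread between libraries sets the precision.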

Additional observations from a re-analysis of the deposited data

How the results depend on the processing

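Each log2 fold change of the 8 members was recomputed under 18 alternatives, 144 values in all, of which 121 kept their direction and side of the threshold, 22 changed sign and 1 passed the threshold. Thbs1, Tnc and Vcan stayed positive under all 18. The value that passed was Thbs1 in DESeq2 with the replicate block (0.74, adjusted p = 0.0218), 1 member called against 0 in every other fit. The block in edgeR or DESeq2 turned the sign of Thbs2, to 0.06, as limma-voom did, to 0.07. Apart from Thbs1 in DESeq2, the block changed no member's call. Scaling on the summed collagen counts turned Postn to -0.02, Sparc to -0.0015 and Thbs3 to -0.15. That scaling moved the median of all genes to -0.179, and relative to it Postn had 0.16, Sparc 0.18 and Thbs3 0.02.

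Over leaving out single libraries or kidneys, the log2 fold change ran from 0.48 to 1.07 for Thbs1, 0.23 to 0.64 for Tnc, 0.13 to 0.67 for Vcan and 0.03 to 0.31 for Sparc. It ran from -0.23 to 0.56 for Postn, -0.25 to 0.23 for Fn1, -0.38 to 0.41 for Thbs2 and -0.16 to 0.29 for Thbs3. The lowest values of Thbs1, Tnc, Vcan, Fn1 and Thbs2 came without both libraries of replicate 2.

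Genes called numbered 262 in the DESeq2 Wald test (15 higher, 247 lower), 276 with the replicate block in DESeq2 (40 and 236) and 6 with collagen scaling (all lower), against 0 in edgeR as reported. At an unadjusted p under 0.05, edgeR had 573 genes higher and 1077 lower. With the median coding transcript length, levels were 935 CPM per kb for Fn1, 107 for Postn, 4040 for Sparc, 14.2 for Thbs3 and 181 for Vcan. The log2 differences of the ratios, added after the data were seen, ran from 0.65 to 0.95 for Thbs1 to Fn1, 0.34 to 0.52 for Tnc to Fn1 and 0.52 to 0.89 for Thbs1 to Thbs2 when libraries or kidneys were left out. The causes of these changes were not tested.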
